A study of Canis lupus familiaris with 27 samples.

Results

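Vimentin and the transcription factors SNAI1, SNAI2, ZEB1, ZEB2 and TWIST1 were examined in 27 canine simple mammary carcinomas. These 6 genes, of 15115 with a symbol on the array, were chosen as the best known factors of the epithelial-mesenchymal transition (EMT) together with its usual marker, and every probe set annotated to exactly 1 of these symbols was taken. There were 10 such probe sets, of which ZEB1 had 5 and each other gene 1. E-cadherin (CDH1, 1 probe set) and N-cadherin (CDH2, 2 probe sets) were set beside them. Where a gene had several probe sets, the one of highest mean over the 27 tumors gave its main value.

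In EMT, an epithelial cell loses its junctions and gains the shape and motility of a mesenchymal cell. SNAI1, SNAI2, ZEB1 and ZEB2 are zinc finger repressors and TWIST1 is a basic helix-loop-helix factor, and all of them are known to lower the transcription of CDH1, the cadherin that joins epithelial cells. Vimentin is the intermediate filament of mesenchymal cells, and carcinoma cells in EMT begin to express it, often along with CDH2. Fibroblasts, endothelium, leukocytes and myoepithelium also express vimentin and several of the factors, so that a level in tumor tissue is a sum over cell types, and fewer cells of a type and less RNA per cell cannot be told apart.

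The tumors came from dogs of several breeds, 13 with lymph node metastases at surgery (metastatic tumors, 12 with an affected inguinal and 1 with an axillary node) and 14 without (non-metastatic tumors). All were estrogen receptor alpha negative, invasive carcinomas macrodissected for a high content of carcinoma cells, and each was hybridized to 1 Affymetrix Canine Genome 2.0 array. The metastatic group held 7 tumors of grade III and 6 of grade II, of 2.42 ± 1.32 cm (SD, n = 13, range 0.5 to 5), from dogs aged 12.4 ± 2.66 years (9 to 16). The non-metastatic group held 9 tumors of grade III and 5 of grade II, of 5.21 ± 3.53 cm (SD, n = 14, range 2 to 15), from dogs aged 11.4 ± 1.65 years (9 to 15). Per the methods, non-metastatic carcinomas were taken if larger than the mean metastatic one and of grade III, so size and lymph node status are linked by design, although the labels give grade II for 5 of them and 2 cm for the smallest. The dog of non-metastatic tumor 12 had lung metastases 8 months after surgery. The luminal epithelial markers EPCAM (11.56 to 14.37 on the log2 scale), KRT8 (8.99 to 14.49), KRT18 (5.69 to 14.37), KRT7 (4.22 to 13.91), ELF3 (2.71 to 10.06) and MUC1 (2.72 to 9.37) spanned these values over the 27 tumors.

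The values are log2 signals, on which a difference of 1 is a doubling of the signal, and the level of a probe set also depends on its own probes, so levels were compared between tumors and not between genes. Arrays correlated with each other at r = 0.91 to 0.99. Metastatic arrays had an upper quartile of 7.93 ± 0.04 (SD, n = 13), against 7.76 ± 0.15 (SD, n = 14) for non-metastatic arrays. The GAPDH control probe sets of the 3′ end exceeded those of the 5′ end by 1.84 ± 0.32 on metastatic and by 1.32 ± 0.42 on non-metastatic arrays. Sample names ended in T for 11 of the 13 metastatic and 0 of the 14 non-metastatic tumors, and the sources used here do not say what the letter stands for. The labels list 1 dog per tumor, and with 27 arrays the intervals given for each difference are what the design can resolve.

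Vimentin was lower in metastatic tumors, whereas none of the 5 transcription factors passed the test in either direction. In metastatic tumors, VIM ranged from 13.33 over a median of 14.41 to 15.52, against 14.55, 15.24 and 15.71 in non-metastatic tumors. The upper ends of both groups lay close together, but 7 of 13 metastatic tumors lay below the lowest non-metastatic one and 10 of 13 below the non-metastatic median. The mean was 14.52 ± 0.76 (SD, n = 13) for metastatic and 15.16 ± 0.35 (SD, n = 14) for non-metastatic carcinomas, which differ by −0.64 on the log2 scale (SE 0.22, limma adjusted p = 0.0424), or a signal 1.55-fold higher in non-metastatic tumors. The lowest 3 values were those of metastatic tumors 13, 8 and 10, all of grade II, and the next was that of metastatic tumor 12 (13.84), of grade III. Of all genes, 456 (3.02%) had 7 or more metastatic tumors below every non-metastatic tumor. Among the 6 genes, 1 was lower and 0 were higher, against 1194 lower (7.9%) and 1705 higher (11.3%) of the 15115 genes tested, which together make 19.2%. Of the 10 probe sets 1 passed, against 21.2% of all 42860 (11.4% lower, 9.76% higher). The count of 0 higher holds also for the ANOVA of the methods and for limma at an unadjusted p under 0.05, which 18.6% of all genes passed as higher and 15.7% as lower. That ANOVA was rerun here without moderated variances and judged at an adjusted p of 0.05. For its gene list, the study used a stricter cut-off on q and also one on fold change.

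The vimentin call stood close to the threshold. It was lost when any 1 of 16 of the 27 tumors was left out (metastatic tumors 4, 5, 8, 10, 11, 12 and 13 and non-metastatic tumors 1, 3, 4, 5, 7, 8, 10, 11 and 14), with log2 differences between −0.65 and −0.54 and adjusted p from 0.0502 to 0.0738 in limma. Size, which differs between the groups, took the difference to −0.39 (adjusted p = 0.389) when it was added to the model, and grade took it to −0.61 (adjusted p = 0.053). With the ending of the sample name in the model the sign turned, to 0.09 (adjusted p = 0.92). The metastatic side of that fit rests on metastatic tumors 1 and 2, whose VIM values were 15.48 and 15.02. With the mean of the smooth muscle and myoepithelial markers in the model, a fit added once the data had been seen, the difference was −0.12 (adjusted p = 0.779). Of these 8 markers (median −0.60), 3 were lower in metastatic tumors by the test (MYH11 with −3.88, CNN1 with −2.64 and MYLK with −2.47). The other 5 did not pass, and of all genes 7.9% were lower. The summed level of the 8 ran from 13.00 to 15.82 in metastatic and from 13.42 to 16.17 in non-metastatic tumors on the log2 scale. With the fibroblast markers in the model the VIM difference was −0.83 (adjusted p = 0.0122) and with the endothelial markers, likewise added later, −0.85 (adjusted p = 0.0011).

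**Figure D1:**
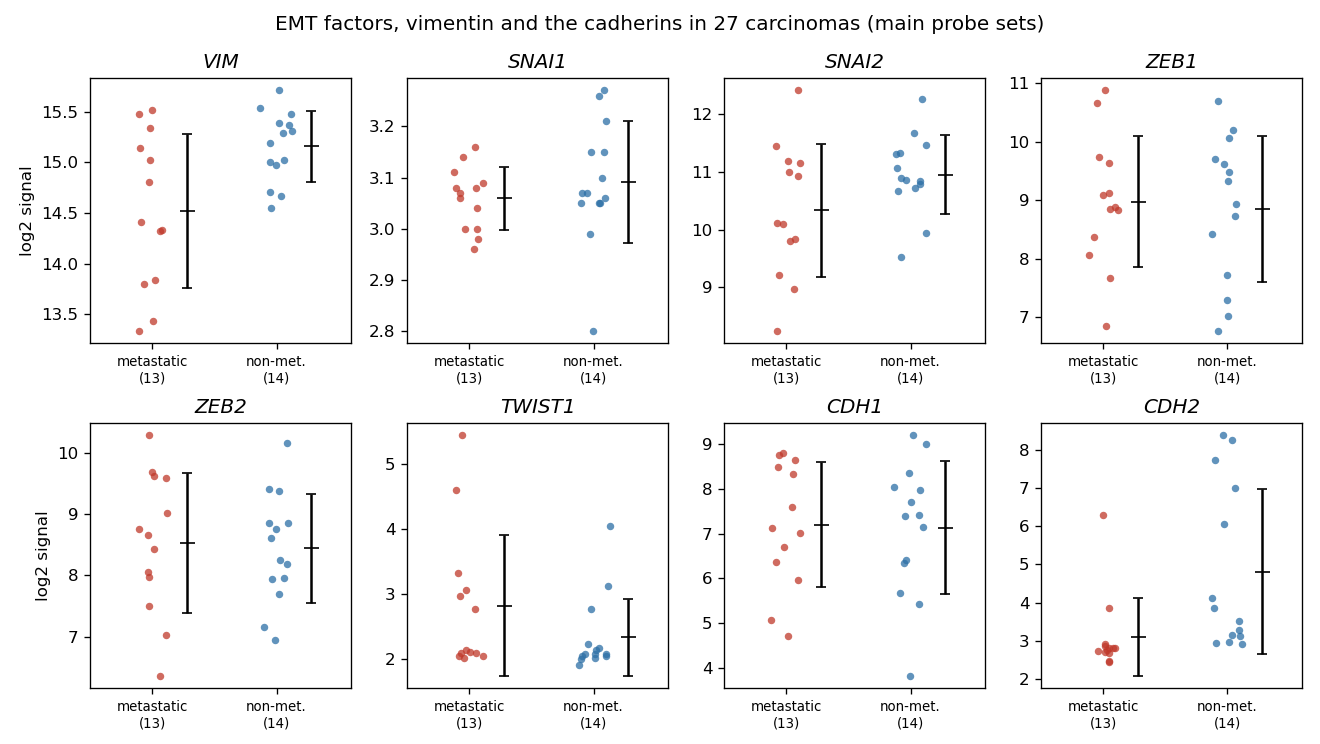
Log2 signal of the main probe set of each gene (vertical axis, scaled per gene) in 13 metastatic (red) and 14 non-metastatic tumors (blue), 1 point per tumor, with the mean and SD beside the points. VIM reached down to 13.33 in metastatic tumors and to 14.55 in non-metastatic ones, and CDH2 lay above 6 in 1 metastatic and 5 non-metastatic tumors.

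SNAI2 (Slug), which is also active in normal basal mammary cells, had the largest difference of the 5 factors, without passing the test. It ranged from 8.24 over a median of 10.11 to 12.41 in metastatic tumors and from 9.52 over 10.88 to 12.26 in non-metastatic tumors. The groups overlapped over most of their range, with 3 metastatic tumors (8, 4 and 10) below every non-metastatic one and 1 (metastatic tumor 1) above every one. The mean was 10.34 ± 1.15 (SD, n = 13) in metastatic against 10.95 ± 0.68 (SD, n = 14) in the other tumors, a difference of −0.61 on the log2 scale (SE 0.35, limma adjusted p = 0.203, 95% interval −1.34 to 0.11). It was −0.91 (adjusted p = 0.0329) with the endothelial markers in the model, which was the only setting to bring SNAI2 past the threshold, −0.15 (adjusted p = 0.842) with the smooth muscle and myoepithelial markers and 0.31 (adjusted p = 0.824) with the ending of the sample name.

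SNAI1 (Snail), the founding repressor of the family, was measured near the floor of the array. It ranged from 2.96 to 3.16 in metastatic and from 2.80 to 3.27 in non-metastatic tumors, with a median of 3.07 in both. All 27 tumors lay within 0.47 of each other and the groups overlapped almost fully. The difference was −0.03 (SE 0.04, limma adjusted p = 0.558, 95% interval −0.11 to 0.05), and its sign changed with scaling. Centring each array on its upper quartile gave −0.21 (adjusted p = 0.0254), while the same scaling moved the median of all genes to −0.18. No tumor rose above 3.27. So near the floor, this does not show that the gene was silent or alike in both groups.

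ZEB1, a repressor kept down in epithelia by the miR-200 family, varied widely within both groups. Its main probe set ranged from 6.85 over a median of 8.88 to 10.88 in metastatic tumors, against 6.76, 9.13 and 10.70 in non-metastatic tumors. Neither end set the groups apart. The log2 difference was 0.12 (SE 0.45, limma adjusted p = 0.859), with a 95% interval from −0.80 to 1.04. The other 4 probe sets of ZEB1 gave differences of −0.09, 0.01, 0.24 and −0.02, none past the test, and the 5 probe sets followed each other over the tumors at r = 0.78 to 0.88. The spread of ZEB1 between tumors was thus shared by its 5 probe sets.

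ZEB2, the paralog of ZEB1, gave the same picture. It ranged from 6.35 over a median of 8.66 to 10.29 in metastatic tumors and from 6.94 over 8.44 to 10.17 in non-metastatic tumors. The log2 difference was 0.09 (SE 0.39, limma adjusted p = 0.875, 95% interval −0.70 to 0.89). Metastatic tumor 1 held the highest value and metastatic tumor 8 the lowest. For ZEB1 and ZEB2 the sign of the difference turned after a second quantile normalization (−0.05 and −0.07) or when arrays were centred on the upper quartile (−0.06 and −0.08), so no direction can be given.

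TWIST1 was near the floor in most tumors and higher in a few. In metastatic tumors it ranged from 2.03 over a median of 2.14 to 5.43, and in non-metastatic tumors from 1.91 over 2.09 to 4.04. Values above 4 were found in metastatic tumors 9 (5.43) and 11 (4.60) and in non-metastatic tumor 4 (4.04). All were of grade III, as were 16 of the 27 tumors. Above 2.5 lay 6 of 13 metastatic and 3 of 14 non-metastatic tumors. The mean was 2.83 ± 1.09 (SD, n = 13) in metastatic against 2.34 ± 0.59 (SD, n = 14) in the other tumors, a difference of 0.48 on the log2 scale (SE 0.33, limma adjusted p = 0.278, 95% interval −0.19 to 1.15). Its direction was the same under all alternatives run, with values from 0.26 to 0.79.

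**Figure D2:**
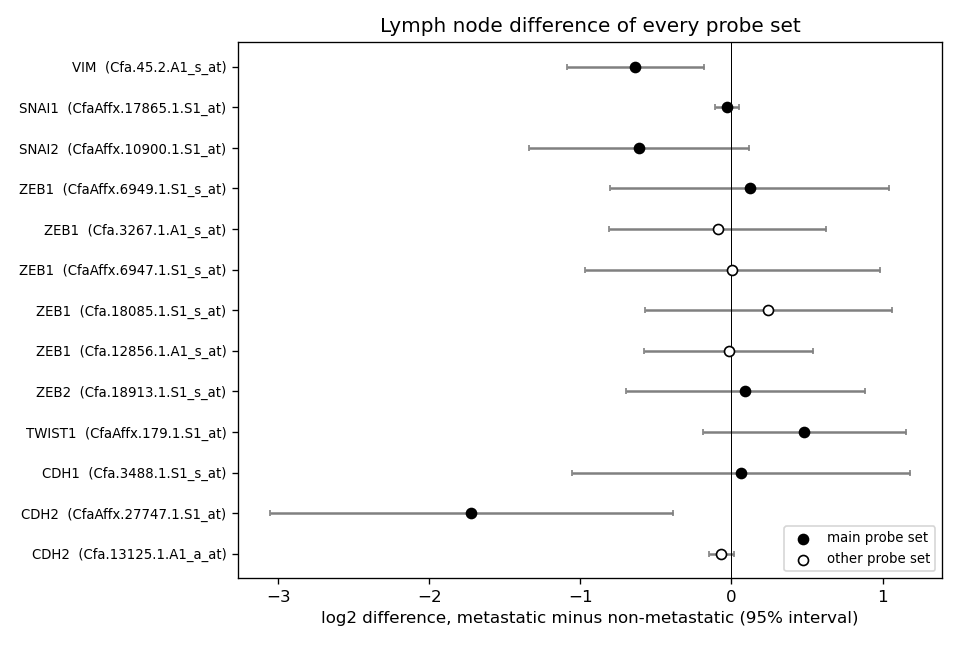
Log2 difference between metastatic and non-metastatic tumors (horizontal axis) for every probe set of the 6 genes and the cadherins (rows), with 95% intervals in limma, filled points marking the main probe set of a gene. The interval of VIM (−1.09 to −0.18) and that of the main CDH2 probe set (−3.05 to −0.39) leave out 0, those of the 5 ZEB1 probe sets lie across it. The intervals are not adjusted for the number of probe sets tested, and CDH2 did not pass after adjustment (limma adjusted p = 0.0577). Over the array 37.7% of probe sets had an unadjusted p under 0.05 in limma.

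The cadherins, the usual readout of the switch, did not pass the test. CDH1 ranged from 4.71 over a median of 7.14 to 8.80 in metastatic tumors, against 3.81, 7.41 and 9.20 in non-metastatic tumors. The groups overlapped over most of their range and differed by 0.06 on the log2 scale (SE 0.54, limma adjusted p = 0.942, 95% interval −1.06 to 1.18), whose sign changed with scaling. CDH2 ranged from 2.45 over a median of 2.80 to 6.29 in metastatic tumors and from 2.92 over 3.69 to 8.38 in non-metastatic tumors. Here 10 of 13 metastatic tumors, with values of 2.45 to 2.87 near the floor of the array, lay below every non-metastatic tumor, which held for 10 or more metastatic tumors in 0.688% of all genes. Non-metastatic tumors 7, 8 and 10 lay just above them, at 2.92, 2.93 and 2.98, so this separation was narrow and near the floor. The log2 difference of −1.72 (SE 0.65) had an adjusted p of 0.0577 in limma, and the p fell under 0.05 when metastatic tumor 9 (−1.99, adjusted p = 0.0276) or any 1 of non-metastatic tumors 6, 7, 8 and 11 was left out (−1.87 to −1.84, adjusted p = 0.0436 to 0.0492). The second CDH2 probe set varied over 0.43 in all and differed by −0.07. CDH2 exceeded 6 in metastatic tumor 9 and in non-metastatic tumors 2, 3, 9, 12 and 14. All 6 were of grade III, as were 16 of the 27 tumors, while the highest grade II tumor reached 4.12. In these 6 tumors CDH1 took values from 3.81 to 8.35, so that both low and high E-cadherin occurred beside high N-cadherin.

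By grade, no gene passed the test. In tumors of grade III, VIM averaged 14.99 ± 0.48 (SD, n = 16), against 14.64 ± 0.84 (SD, n = 11) in grade II. SNAI2 averaged 10.92 ± 0.75 and 10.28 ± 1.16 and TWIST1 2.78 ± 1.05 and 2.28 ± 0.44 in grade III and grade II, with the same numbers of tumors. With lymph node status in the model, the differences of grade III minus grade II were 0.28 for VIM (SE 0.22), 0.06 for SNAI1, 0.58 for SNAI2 (SE 0.35), 0.19 for ZEB1, −0.00 for ZEB2 and 0.55 for TWIST1 (SE 0.32). Adjusted p in limma was 0.781 or more for each of them, and 0 of the 6 passed an unadjusted 0.05. Over the array 0 of 42860 probe sets (0%) passed the adjusted threshold in limma and 0 in the unmoderated fit, and 2260 had an unadjusted p under 0.05. CDH2 differed by 1.39 (SE 0.62, unadjusted p = 0.033, adjusted p = 0.781) and CDH1 by −0.93 (SE 0.54, adjusted p = 0.781). The lymph node difference of VIM was −0.87 within grade II (adjusted p = 0.372, 6 metastatic and 5 non-metastatic tumors) and −0.42 within grade III (adjusted p = 0.233, 7 and 9 tumors). The test of a different lymph node effect between grades gave 0.45 for VIM (SE 0.45, adjusted p = 1.00) and was passed by 0 probe sets in limma (0%), 897 of which had an unadjusted p under 0.05, among them 0 of the 6 genes.

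**Figure D3:**
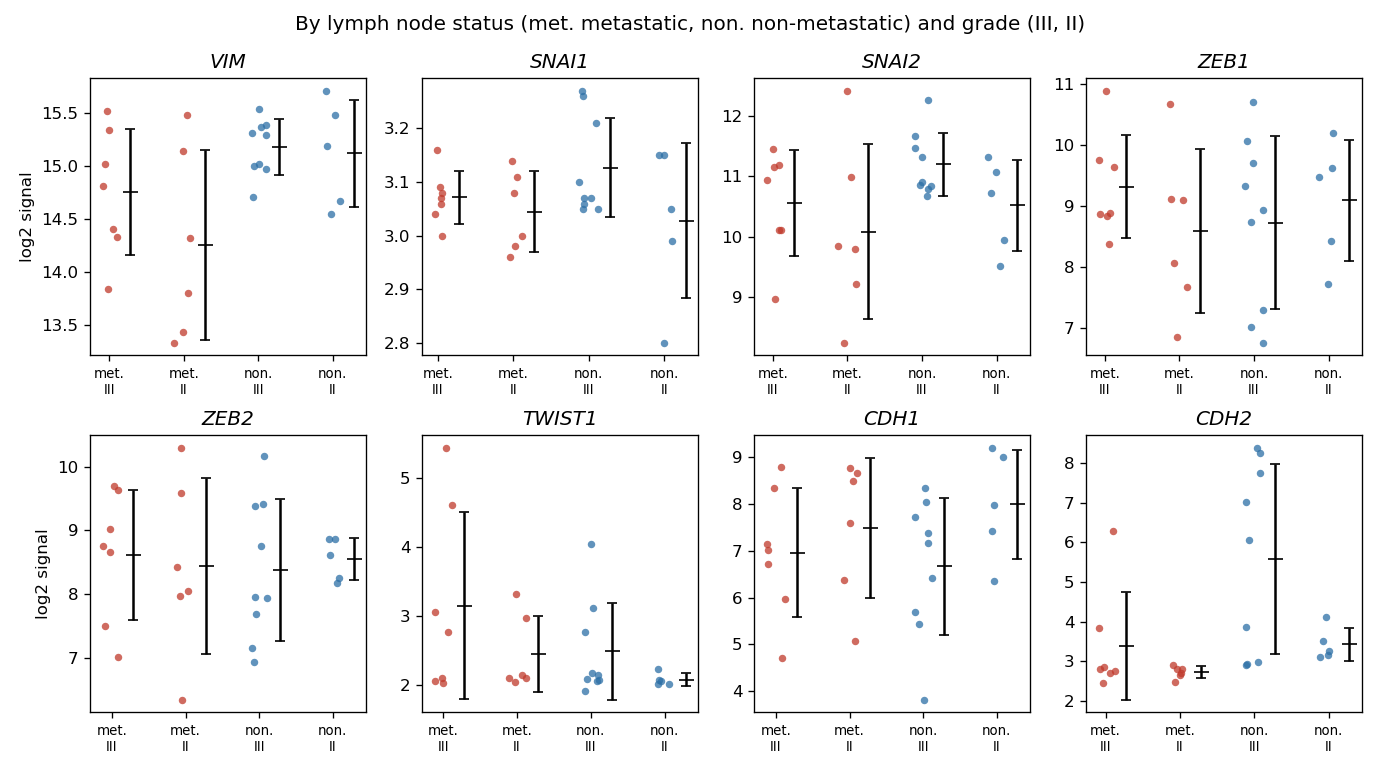
Log2 signal of the main probe sets (vertical axis) split by lymph node status and grade, with 7 metastatic grade III, 6 metastatic grade II, 9 non-metastatic grade III and 5 non-metastatic grade II tumors, and the mean and SD beside the points. VIM was lowest on average in metastatic tumors of grade II (14.25) and highest in non-metastatic tumors of grade III (15.18), and the CDH2 values above 6 and TWIST1 values above 4 were all of grade III.

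By tumor size, the main probe sets of all 6 genes had positive slopes that did not pass the test. The mean of VIM was 15.16 in the 9 tumors of 4 cm or more, against 14.70 in the 18 smaller ones. Over the same tumors it was 11.09 against 10.44 for SNAI2, 9.13 against 8.81 for ZEB1, 8.74 against 8.36 for ZEB2 and 2.86 against 2.43 for TWIST1. With lymph node status in the model, the slope of the log2 signal per doubling of the diameter was 0.22 for VIM (SE 0.12), 0.04 for SNAI1 (SE 0.02, unadjusted p = 0.0465), 0.20 for SNAI2, 0.31 for ZEB1, 0.21 for ZEB2 and 0.27 for TWIST1. The adjusted p in limma was 0.636 or more for each, and 0 of 42860 probe sets (0%) passed, 3371 having an unadjusted p under 0.05, and 0 in the unmoderated fit. Within each group the slope of VIM was 0.27 in metastatic and 0.15 in non-metastatic tumors, and that of SNAI2 was 0.03 in metastatic and 0.43 in non-metastatic tumors. These slopes were not shown to differ (adjusted p = 0.936 and 0.878 for the difference). Over the array 1 probe set (0.00233%), the main one of 1 other gene (0.00662%), passed that test, and 0 of the 6 genes had an unadjusted p under 0.05.

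Over the tumors, vimentin followed SNAI2, ZEB1 and ZEB2. To keep the lymph node difference out, values were centred on the mean of each lymph node group, and the 28 pairs among the 6 genes and the cadherins were tested with 100000 permutations within groups, two-sided, with adjustment over the 28. Of these, 4 passed. VIM and SNAI2 correlated at r = 0.72 (Spearman rho 0.69, p = 0.00024, adjusted p = 0.00243; 0.77 in metastatic and 0.59 in non-metastatic tumors). VIM and ZEB1 correlated at r = 0.62 (rho 0.63, p = 0.00026, adjusted p = 0.00243; 0.80 in metastatic and 0.47 in non-metastatic tumors), and ZEB1 and ZEB2 at r = 0.69 (rho 0.69, p = 0.0001, adjusted p = 0.00243; 0.78 and 0.62 in the same groups). VIM and ZEB2 correlated at r = 0.61 (rho 0.62, p = 0.0017, adjusted p = 0.0119), with 0.82 in metastatic and 0.11 in non-metastatic tumors, and this difference between the groups was not tested. Without metastatic tumor 8, the tumor lowest in ZEB2 and SNAI2, the relation of VIM and ZEB2 was 0.52 (adjusted p = 0.0524 from the same permutation test). Leaving out the 2 tumors farthest from the median of the first gene of a pair gave 0.68 for VIM and SNAI2, 0.50 for VIM and ZEB1, 0.52 for VIM and ZEB2 and 0.59 for ZEB1 and ZEB2. Within the 11 metastatic tumors whose names end in T, the 4 values were 0.75, 0.83, 0.79 and 0.74 for VIM with SNAI2, ZEB1 and ZEB2 and for ZEB1 with ZEB2.

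**Figure D4:**
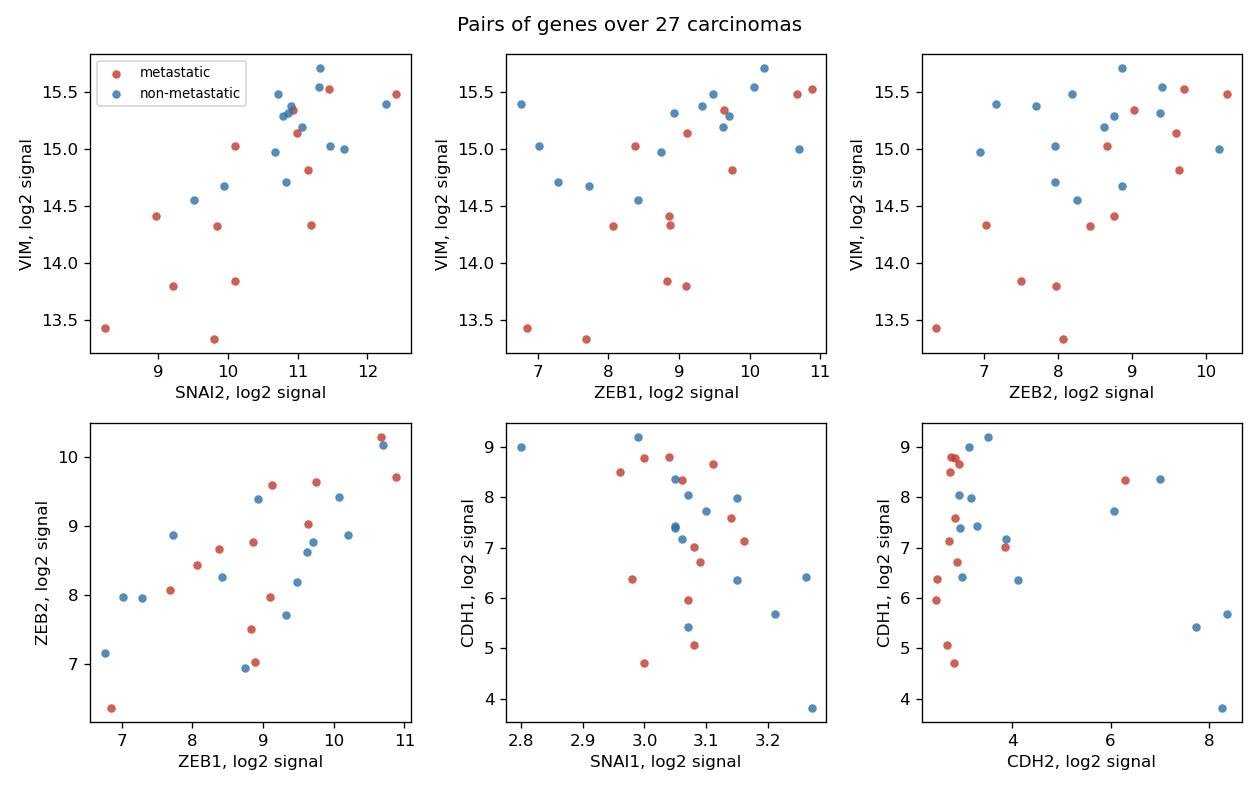
Log2 signals of 6 pairs of genes in 13 metastatic (red) and 14 non-metastatic tumors (blue), 1 point per tumor. VIM rises with SNAI2, ZEB1 and ZEB2 and ZEB1 with ZEB2 (centred r = 0.72, 0.62, 0.61 and 0.69), whereas SNAI1 with CDH1 and CDH2 with CDH1 did not pass the test (adjusted p = 0.0581 and 0.266).

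The same genes were set beside the mean levels of marker genes of other cell types. With values centred on the group means, VIM correlated with the endothelial markers at r = 0.73 (metastatic tumors 0.83, non-metastatic tumors 0.29), with the smooth muscle and myoepithelial markers at 0.51 (metastatic tumors 0.67, non-metastatic tumors 0.18) and with the fibroblast markers at 0.44 (metastatic tumors 0.80, non-metastatic tumors −0.06). With the luminal markers VIM gave −0.04. SNAI2 gave 0.62 with the endothelial markers (metastatic tumors 0.83, non-metastatic tumors −0.08) and −0.44 with the luminal markers (metastatic tumors −0.29, non-metastatic tumors −0.71). ZEB1 gave 0.69 with the fibroblast markers (metastatic tumors 0.72, non-metastatic tumors 0.67), 0.65 with the macrophage markers (metastatic tumors 0.39, non-metastatic tumors 0.80) and 0.63 with the endothelial markers (metastatic tumors 0.85, non-metastatic tumors 0.41). ZEB2 gave 0.77 with the fibroblast markers (metastatic tumors 0.76, non-metastatic tumors 0.81), 0.68 with the macrophage markers (metastatic tumors 0.53, non-metastatic tumors 0.88) and 0.58 with the endothelial markers (metastatic tumors 0.73, non-metastatic tumors 0.26). These differences between the groups were not tested. When the endothelial mean was removed from both genes, the centred r was 0.50 for VIM and SNAI2, 0.30 for VIM and ZEB1, 0.32 for VIM and ZEB2 and 0.52 for ZEB1 and ZEB2. Removing the fibroblast mean gave 0.72, 0.49, 0.47 and 0.35 for the same pairs, and the macrophage mean 0.72, 0.71, 0.71 and 0.45. With the smooth muscle and myoepithelial, basal or luminal mean removed, VIM and SNAI2 gave 0.70 to 0.79, VIM and ZEB1 0.63 to 0.73, VIM and ZEB2 0.61 to 0.76 and ZEB1 and ZEB2 0.68 to 0.69. These are descriptions over 27 tumors, chosen after seeing the data and given with no test.

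Of the 12 pairs of a gene with a cadherin, 0 passed the permutation test by r or by rho, and 2 had an unadjusted p under 0.05. SNAI1 and CDH1 had the largest negative correlation (r = −0.49, rho −0.45, permutation p = 0.0115, adjusted p = 0.0581), with −0.02 in metastatic and −0.73 in non-metastatic tumors, and −0.29 without non-metastatic tumors 6 and 12, the lowest and the highest in SNAI1. Its adjusted p was under 0.05 without metastatic tumors 1, 6, 10 or 12 or non-metastatic tumors 9 or 13 (r = −0.58 to −0.51). The SNAI1 values behind it span 0.47 in all, and the mean of the luminal markers gave 0.68 with CDH1 and −0.48 with SNAI1. SNAI2 and CDH1 gave −0.22 (adjusted p = 0.597), ZEB1 and CDH1 −0.06, ZEB2 and CDH1 −0.05, and TWIST1 and CDH1 0.08. The last pair gave 0.33 in metastatic and −0.33 in non-metastatic tumors (rho 0.30 and −0.61). TWIST1 and CDH2 gave 0.41 (adjusted p = 0.0581), of which 0.19 was left without metastatic tumors 9 and 11, and 0.47, 0.50 and 0.45 (adjusted p under 0.05) without non-metastatic tumors 2, 4 or 9. This pair gave 0.86 in metastatic and 0.22 in non-metastatic tumors, but rho was 0.41 and 0.71, and the groups were not compared by a test. Metastatic tumor 9 was the highest of its group in both genes. VIM and CDH2 gave 0.04 (adjusted p = 0.886), and CDH1 and CDH2, which the switch would set against each other, −0.35 (adjusted p = 0.266), with 0.28 in metastatic and −0.63 in non-metastatic tumors. SNAI2 with ZEB1 (0.46, adjusted p = 0.0581) and with ZEB2 (0.46, adjusted p = 0.0833) reached 0.81 and 0.69 in metastatic tumors and 0.03 and 0.02 in non-metastatic tumors. Here too the groups were not compared by a test. Without non-metastatic tumor 8, the highest of its group in SNAI2 and the lowest in ZEB1, both centred correlations were larger, at 0.64 and 0.58 (adjusted p = 0.00371 and 0.0186). SNAI2 with ZEB1 also passed without non-metastatic tumor 10 (0.53), by rho (0.50, adjusted p = 0.044) and with the mean of the ZEB1 probe sets (0.54), and SNAI2 with ZEB2 without metastatic tumor 11 (0.56).

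**Figure D5:**
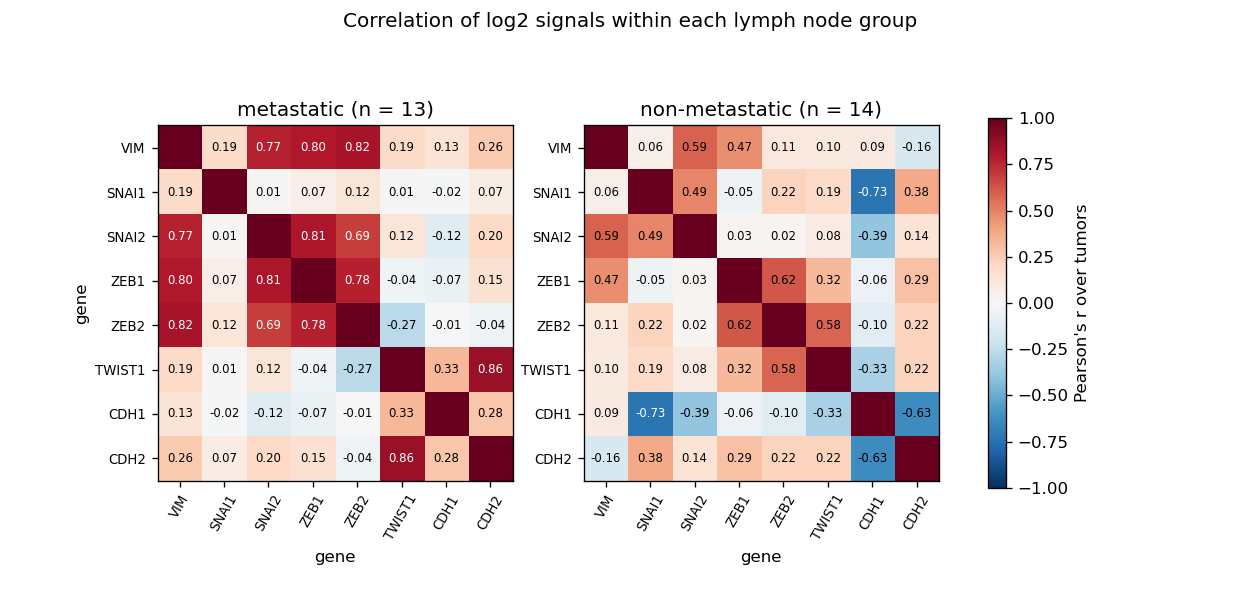
Pearson's r between the log2 signals of each pair of genes (rows and columns) within 13 metastatic tumors (left) and 14 non-metastatic tumors (right), coloured from −1 (blue) to 1 (red). VIM, SNAI2, ZEB1 and ZEB2 form a block of 0.69 to 0.82 in metastatic tumors, where in non-metastatic tumors the same pairs run from 0.02 to 0.62. This difference between the groups was not tested.

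The genes whose pattern over the 27 tumors was most like that of a member were sought among genes at or above the median brightness, as a description of likeness only. Values were not centred on the group means here, so a shared lymph node difference is part of these r values. VIM was most like TACC1 (r = 0.88), PRRX1 (0.87), CALD1 (0.84) and ECM2 (0.82). SNAI2 was most like C7H1orf21 (0.80), VIM (0.76), CALD1 (0.74) and RSU1 (0.74). ZEB1 was closest to PLPP7 (0.88), EEA1 (0.87), SYNE1 (0.87) and PRSS23 (0.85), and ZEB2 to EMP3 (0.81), TPM4 (0.80), KLF7 (0.80) and the collagen COL5A1 (0.79). TWIST1 and SNAI1, measured near the floor, had lower likeness, TWIST1 to the endothelial sialomucin EMCN (0.67), BPGM (0.65), HBEGF (0.64) and SLC22A16 (0.64), and SNAI1 to RALGPS1 (0.72), BCL2L14 (0.71), TMC3 (0.70) and MCU (0.70).

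Among 16 other factors that can induce EMT, 9 were measured, 0 rose and 2 fell in metastatic tumors, where 11.3% of all genes were higher and 7.9% lower. Their median log2 difference was −0.07 against −0.00 over all genes. The ANOVA of the methods gave the same counts, and so did an unadjusted p under 0.05 (18.6% of all genes higher and 15.7% lower). With arrays centred on the upper quartile 5 fell, a scaling under which 5742 of the 15115 genes were lower. PRRX1, a homeobox factor of mesenchymal cells, fell by 1.29 (9.15 against 10.44, SE 0.34, adjusted p = 0.0098 in limma), and its fall held under the 3 other scalings (−1.47 to −1.24). KLF8 differed by −0.07 at a signal near the floor (adjusted p = 0.0489), a call lost when arrays were centred on the median (adjusted p = 0.657) or quantile-normalized again (0.173). The others, SNAI3, TWIST2, FOXC2, SOX9, TCF3, TCF4 and LEF1, did not pass.

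Of 22 mesenchymal genes known to be raised in EMT, 21 were measured and 0 passed in either direction in limma, with a median of 0.32. The ANOVA of the methods gave 0 as well, and at an unadjusted p under 0.05 limma gave 2 higher and 1 lower. At that p 18.6% of all genes were higher and 15.7% lower. With arrays centred on the upper quartile, which lowers the median of all genes, 3 fell, while 5742 of the 15115 genes were lower there. The list holds CDH2, 3 of the fibroblast markers and 2 of the smooth muscle markers. Fibronectin (FN1) differed by 0.51 (adjusted p = 0.48), COL1A1 by 1.13 (adjusted p = 0.0661) and the actin binding TAGLN by −0.68 (adjusted p = 0.136). Of 27 epithelial genes lowered in EMT, 26 were measured, of which 2 rose and 0 fell in metastatic tumors, with a median of 0.40. This list holds CDH1 and 3 of the measured luminal markers (EPCAM, KRT8 and KRT18). Of all genes 11.3% were higher and 7.9% lower, so that 2 of 26 higher is no more than over the array. Again 0 fell in the ANOVA of the methods or at an unadjusted p under 0.05, where 5 were higher, against 18.6% of all genes higher and 15.7% lower. CRB3, a polarity protein, rose by 1.35 (7.79 against 6.44, adjusted p = 0.023) and MARVELD2, a protein of tricellular junctions, by 0.89 at a low signal (3.27 against 2.39, adjusted p = 0.0227).

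In the circuit around the factors, 15 of 16 genes were measured, 3 rose and 1 fell, with a median of 0.29. Of all genes 11.3% were higher and 7.9% lower, and the counts were not tested against these shares. TGFB1, a ligand that induces EMT, rose by 1.04 (8.55 in metastatic against 7.51 in non-metastatic tumors, adjusted p = 0.0326) and its relative TGFB3 fell by 1.11 (6.96 against 8.07, adjusted p = 0.0119). SMAD4, the common partner of the receptor-activated SMADs, rose by 0.40 (adjusted p = 0.00725) and the deacetylase HDAC1, a partner of SNAI1 in repression, by 0.67 (adjusted p = 0.00374). When values were quantile-normalized again, TGFB1 (adjusted p = 0.0796) and SMAD4 (0.0605) no longer passed, and with centring on the upper quartile SMAD4 did not (0.0722). Under that centring 2 genes of the circuit rose and 4 fell, against 1272 higher and 5742 lower of the 15115 genes.

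Markers of the other cells that tumor tissue can hold were counted with the same test, which 11.3% of all genes passed as higher and 7.9% as lower. In limma 0 of 10 fibroblast markers (median 0.66), 0 of 8 T cell markers (median 0.72) and 0 of 5 adipocyte markers (median 0.05) passed. Of 9 endothelial markers (median 0.55), PECAM1 rose by 1.00 and TEK fell by 1.02 in metastatic tumors, and of 8 macrophage markers (median 0.76) AIF1 rose by 0.97. Of the basal epithelial markers, 4 of 6 were measured and KRT17 was lower by a log2 difference of −2.88, and 0 of 6 measured luminal markers passed (median 0.54), while the 3 of 8 smooth muscle and myoepithelial markers are given with VIM. In limma 18.6% of all genes were higher and 15.7% lower at an unadjusted p under 0.05. By that measure 4 fibroblast, 1 T cell, 1 luminal and 0 adipocyte markers were higher and 0 of these lists lower. The ANOVA of the methods called 0 markers of these lists. Higher by the same unadjusted p were 4 endothelial and 4 macrophage markers. Lower were 1 endothelial, 5 smooth muscle and myoepithelial and 1 basal marker. AIF1 and PECAM1 no longer passed when values were quantile-normalized again (adjusted p = 0.114 and 0.0871), nor did AIF1 in the ANOVA of the methods. Summed levels ran from 14.24 to 17.94 in metastatic and from 12.67 to 17.93 in non-metastatic tumors for the fibroblast markers, from 10.10 to 13.05 and from 9.77 to 12.07 for the endothelial markers and from 12.14 to 15.30 and from 11.66 to 15.35 for the macrophage markers, in the same order of groups. Their medians, metastatic first, were 16.45 and 15.90, 11.56 and 11.05, and 13.95 and 13.27 for the same lists. Apart from the fits with marker means above, the part of these markers in the results was not tested.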

How the data were processed

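RNA from each of 27 canine mammary carcinomas went onto its own Affymetrix Canine Genome 2.0 array. Per the methods, the authors processed the arrays in the gcRMA workflow of Partek (background correction of RMA, quantile normalization, summary by median polish), and what they deposited is a table of log2 signals, used as it stands. Such values compress low signals towards a floor. Groups were taken from the label of the affected lymph node, and grade, size and age from the labels, and replicates were numbered in deposition order.

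Of 43035 probe sets 175 are controls and were dropped, and metastatic and non-metastatic tumors were compared over the other 42860 by limma (version 3.58.1, under R 4.3.3), with moderated variances and p-values adjusted by Benjamini-Hochberg at a threshold of 0.05. Grade and log2 size were fitted with lymph node status as covariate. On the platform annotation 29254 probe sets carry 1 symbol, 439 several and 13167 none. Relations were tested with 100000 permutations in Python 3.11.15 (numpy 2.4.6, scipy 1.17.1), and plots drawn with matplotlib 3.10.9. Both programs were tested on simulated data.

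The genes, the gene lists and the rule for naming genes were chosen with earlier results of these data known. Named are the 6 genes and both cadherins, up to 4 genes rising and 4 falling with the smallest adjusted p per EMT list, and the 4 most alike genes for each of the 6. FN1, COL1A1 and TAGLN were named after their values were seen. Alternatives covered the test, scaling, dim probe sets, the probe set, covariates, grade and single tumors. The label gives non-metastatic tumor 1 grade II where the methods give III, which was tried too. No coordinates or sequences were used here.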

Additional observations from a re-analysis of the deposited data

Results flagged for a closer look

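CDH2 in metastatic tumor 9 stood apart from the other metastatic tumors of grade III. Its log2 signal was 6.29, and the next of the 7 tumors was at 3.85, a gap of 0.635 of the whole range. The same tumor had the highest TWIST1 signal of all 27 (5.43), and CDH1 in it was 8.34. Of 32 groups of a gene, a lymph node status and a grade tested in this way, 1 was singled out, and chance does so for about 1 in 20.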

How the results depend on the processing

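Values are log2 differences of metastatic minus non-metastatic tumors, and where a call or a sign was lost the cause was not tested. For VIM, the call was lost (0 genes lower in place of 1) when arrays were centred on the median (−0.59, adjusted p = 0.0785 in limma) or quantile-normalized again (−0.63, 0.0678), and with grade (−0.61, 0.053), size (−0.39, 0.389), age (−0.64, 0.0576), the array's upper quartile (−0.73, 0.151), the GAPDH 3′ to 5′ difference (−0.61, 0.146), the macrophage markers (−0.70, 0.0538), the smooth muscle and myoepithelial markers (−0.12, 0.779) or the basal markers (−0.49, 0.179) in the model. It was lost too within grade III (−0.42, 0.233) and grade II (−0.87, 0.372), and blocking on the sample name's last letter turned the sign (0.091, 0.92). At an adjusted p of 0.05 it was kept in the ANOVA of the methods (0.0446), with array weights (0.0387), upper-quartile centring (−0.81, 0.00601), bright probe sets only (0.0323), adjustment over genes (0.0471), the fibroblast markers and the endothelial markers. The cut-offs of the study on q and fold change were stricter than this. The number of genes lower was 2 with upper-quartile centring (VIM and SNAI1) and with the endothelial markers (VIM and SNAI2). Upper-quartile centring made 5742 of all 15115 genes lower, and for the fit with the endothelial markers the share of all genes was not computed. Without single tumors VIM gave −0.72 to −0.54, and 0 to 1 genes were lower.

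SNAI1 turned with array weights (0.013), median centring (0.016), quantile normalization (0.069), size (0.018), the upper quartile in the model (0.082) and within grade II (0.016), and passed only with upper-quartile centring (−0.21). SNAI2 turned with the name ending (0.31) and passed with the endothelial markers (−0.91). ZEB1 turned with array weights (−0.15), quantile normalization (−0.048), upper-quartile centring (−0.056), 2 other probe sets (−0.090 and −0.018), the upper quartile (−0.37), GAPDH (−0.44), the fibroblast (−0.49), macrophage (−0.51), basal (−0.10) and endothelial markers (−0.26) and within grade II (−0.51). ZEB2 turned with quantile normalization (−0.074), upper-quartile centring (−0.083), age (−0.038), the fibroblast (−0.50), macrophage (−0.48), smooth muscle (−0.078), basal (−0.075) and endothelial markers (−0.21) and within grade II (−0.11). CDH1 turned with array weights (−0.45), quantile normalization (−0.074), upper-quartile centring (−0.11), grade (−0.035), size (−0.046), age (−0.0053), the name ending (−0.38), the upper quartile (−1.002), the fibroblast (−0.083) and endothelial markers (−0.076) and within grade II (−0.50). CDH2 passed with upper-quartile centring (−1.90), bright probe sets only, GAPDH (−2.68) and the macrophage markers (−2.07). Without single tumors ZEB1 ran from −0.041 to 0.30, ZEB2 from −0.054 to 0.27 and CDH1 from −0.19 to 0.27. TWIST1 kept its sign in all 20 alternatives and 27 fits without 1 tumor, and none of these passed.

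By grade, ZEB2 (grade III minus grade II) turned with non-metastatic tumor 1 as grade III (0.063) and with quantile normalization (0.020), and ran from −0.21 to 0.16 without single tumors, ZEB1 from −0.0061 to 0.36. No gene passed by grade or size in any fit run. With uncentred values 2 relations passed in place of 4 (VIM with ZEB1 0.52 and with ZEB2 0.50 had an adjusted p of 0.0504 each). By rho, VIM with CDH2 (−0.029), ZEB1 with CDH1 (0.020) and ZEB2 with CDH1 (0.020) turned. Without single tumors, TWIST1 with CDH1 ran from −0.034 to 0.19, VIM with CDH1 from −0.025 to 0.22, VIM with CDH2 from −0.087 to 0.12, ZEB1 with CDH1 from −0.15 to 0.11, ZEB2 with CDH1 from −0.14 to 0.14 and ZEB2 with CDH2 from −0.036 to 0.25.

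Genes higher and lower numbered 1705 and 1194 as deposited, 1824 and 636 after median centring, 1005 and 985 after quantile normalization and 1272 and 5742 after upper-quartile centring, which moved the median of all genes by −0.18. SNAI1 and TWIST1 lay close to the floor in most tumors, where the array resolves little. No paired analysis was possible because the replicate numbers were given in accession order and pair no tumors.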
